A study of Mus musculus with 24 samples.

Results

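The 10 regulators of pharyngeal mesoderm and branchiomeric (head and arch) muscle described here, *Isl1*, *Tcf21*, *Msc*, *Lhx2*, *Pitx1*, *Myf5*, *Myod1*, *Eya1*, *Foxc1* and *Foxc2*, were listed by name, with no threshold on measured values, and are 10 of 19938 genes measured. The list was chosen with earlier results of these data known. All 10 were measured, each by 1 probe set, and none was lost to a filter on low values, since none was used. Expression was measured in the microdissected anterior heart field (AHF) of mouse embryos at E9.5, with 19 to 21 somite pairs, on 24 arrays that form 3 experiments, each with 4 arrays of mutants and 4 of controls. The study asked how *Tbx1* and *β-catenin* act against each other in the AHF, and whether less *β-catenin* offsets loss of *Tbx1*. *Tbx1 LOF* embryos carried *Mef2c-AHF-Cre*/+ with either *Tbx1* f/- or *Tbx1* f/f, taken as 1 group. *β-cat LOF* embryos were *Mef2c-AHF-Cre*/+;*β-catenin* f/f. Rescue embryos carried the *Tbx1 LOF* genotype and 1 *β-catenin* flox allele. The methods give the controls as *Tbx1* f/+, *β-catenin* f/+ and *Tbx1* f/+;*β-catenin* f/+ respectively, all without Cre, whereas the labels name wild type and Cre-carrying *Tbx1* f/+ littermates, and this conflict over the control genotype could not be resolved. The *Tbx1* lines were congenic in Swiss Webster and the *β-catenin* lines carried a C57Bl/6; Swiss Webster mixture, so experiment and background cannot be told apart. Each array was hybridized with RNA of several pooled embryos, amplified from 100 ng. *Mef2c-AHF-Cre* recombines in the AHF lineage of the mesoderm, while the dissected pharyngeal arches behind the first also hold neural crest, endoderm, ectoderm and other mesoderm in which floxed alleles are not recombined. Embryos with *Tbx1* f/- also carry 1 null *Tbx1* allele in every cell, those tissues included, and which pools held such embryos is not stated. In such bulk tissue, fewer cells of a type and less RNA per cell cannot be told apart.

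Branchiomeric muscles, those of the pharyngeal arches, do not arise from somites as trunk muscles do. They arise from pharyngeal mesoderm, whose progenitors also supply the second heart field, and in which *Tbx1*, *Isl1*, *Lhx2*, *Tcf21*, *Msc* and the *Ebf* genes act upstream of the myogenic factors *Myf5* and *Myod1*. In the trunk and limb, *Pax3*, *Six4* and the *Eya* genes feed into the same pair of factors. *Isl1* and *Lhx2* encode LIM homeodomain proteins, *Tcf21* (capsulin) and *Msc* (musculin, MyoR) encode bHLH proteins of the muscle-forming arch core, and *Pitx1* encodes a homeodomain protein of the first arch and hindlimb. *Eya1* encodes a phosphatase and coactivator of sine oculis homeobox proteins that is used in arches, placodes and somites. *Foxc1* and *Foxc2* encode closely related forkhead proteins of head mesenchyme, second heart field and paraxial mesoderm.

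Upstream sequence is shown for those genes on which the comparisons turn that were in the RefSeq promoter table, namely *Foxc1*, *Myf5* and *Isl1*. By limma at an unadjusted p under 0.05, *Foxc1* and *Myf5* were lower in *Tbx1 LOF* and *Isl1* was higher in *β-cat LOF*. All 3 had overlapping arrays, and none passed an adjusted p under 0.05. The table (GRCm38.p6) covered 5 of the 10 genes, with 6 windows, and *Eya1* and *Foxc2* were not among them. The first 2 lines give the 250 bases before the start, and the third gives only the 30 bases next to the start of *Myf5*, since a longer RefSeq model of the gene covers its window. Capitals mark a GC box, a CCAAT box on either strand, or an E-box.
Foxc1, chr13:31806396-31806645, plus strand: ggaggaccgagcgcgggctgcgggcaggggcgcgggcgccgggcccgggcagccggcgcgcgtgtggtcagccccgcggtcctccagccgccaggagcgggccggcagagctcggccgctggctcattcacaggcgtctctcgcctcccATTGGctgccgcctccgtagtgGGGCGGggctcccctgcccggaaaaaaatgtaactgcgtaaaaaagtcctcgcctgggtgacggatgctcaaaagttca
Isl1, chr13:116309689-116309938, minus strand: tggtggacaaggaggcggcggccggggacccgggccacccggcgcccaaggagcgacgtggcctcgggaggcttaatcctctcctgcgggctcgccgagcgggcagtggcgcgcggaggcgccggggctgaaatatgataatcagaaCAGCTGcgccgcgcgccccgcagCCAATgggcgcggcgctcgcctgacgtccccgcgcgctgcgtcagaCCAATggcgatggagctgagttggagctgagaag
Myf5, end of chr10:107486135-107486384, minus strand: aataacgcccagctacagggaccaacctcc

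No window of the 5 genes held the T-box motif GGTGTGA, which 3.33% of all 32851 windows of 250 bases held on either strand, or the TCF/LEF site CTTTGAT or CTTTGAA, which 7.48% held. The *Foxc1* window held a GC box (GGGCGG, in 32.7% of all windows) whose first base lay 79 bases before the start and a CCAAT box (33.8%) at 101 bases. In the *Isl1* window there were CCAAT boxes at 80 and 34 bases and an E-box (CANNTG, 66.2%) at 103 bases, and the *Myf5* window held none of these. These matches describe the letters only.

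As a check of the labels, *Tbx1* itself read 10.98, 11.28, 11.43 and 11.4 on the log2 scale in the 4 *Tbx1 LOF* arrays, below every one of its controls at 11.91, 11.77, 11.98 and 11.99. It was reduced by limma (log2 difference -0.64, SE 0.09, adjusted p = 0.00626), and with same-numbered arrays as pairs the adjusted p was 0.122. In rescue the 4 mutant arrays were also below their controls (log2 difference -0.31, limma adjusted p = 0.99993, exact permutation p = 0.0286). The difference was 0.08 for *β-cat LOF*. The β-catenin gene *Ctnnb1* differed by -0.03 in *β-cat LOF*, with overlapping arrays. In rescue it differed by -0.05 (limma adjusted p = 0.99993, exact permutation p = 0.0286), and the 4 mutant arrays (13.11 to 13.14) were below the 4 controls (13.16 to 13.20). The median residual SD over all genes was 0.112. Levels of genes listed as markers of other cells also differed between groups, and their values follow the results for the 10 regulators.

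None of the 10 regulators passed the adjusted threshold in any experiment, and the largest mutant-to-control difference among them was 1.26-fold. In *Tbx1 LOF*, 0 of 10 were called by limma at an adjusted p under 0.05, as were 0.0301% of all genes. At an unadjusted p under 0.05 there were 4 of 10, *Myf5*, *Eya1*, *Foxc1* and *Foxc2*, against 4.12% of all genes. All 4 were lower in the mutants, a direction and threshold met by 1.95% of all genes. Because the list was chosen with earlier results of these data known, these shares are a description and not a test. None of the 10 passed an unadjusted p under 0.05 together with a fold change over 1.5, which 0.326% of genes did. The median log2 difference of the 10 was -0.05 and that of all genes was -0.01.

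**Figure D1:**
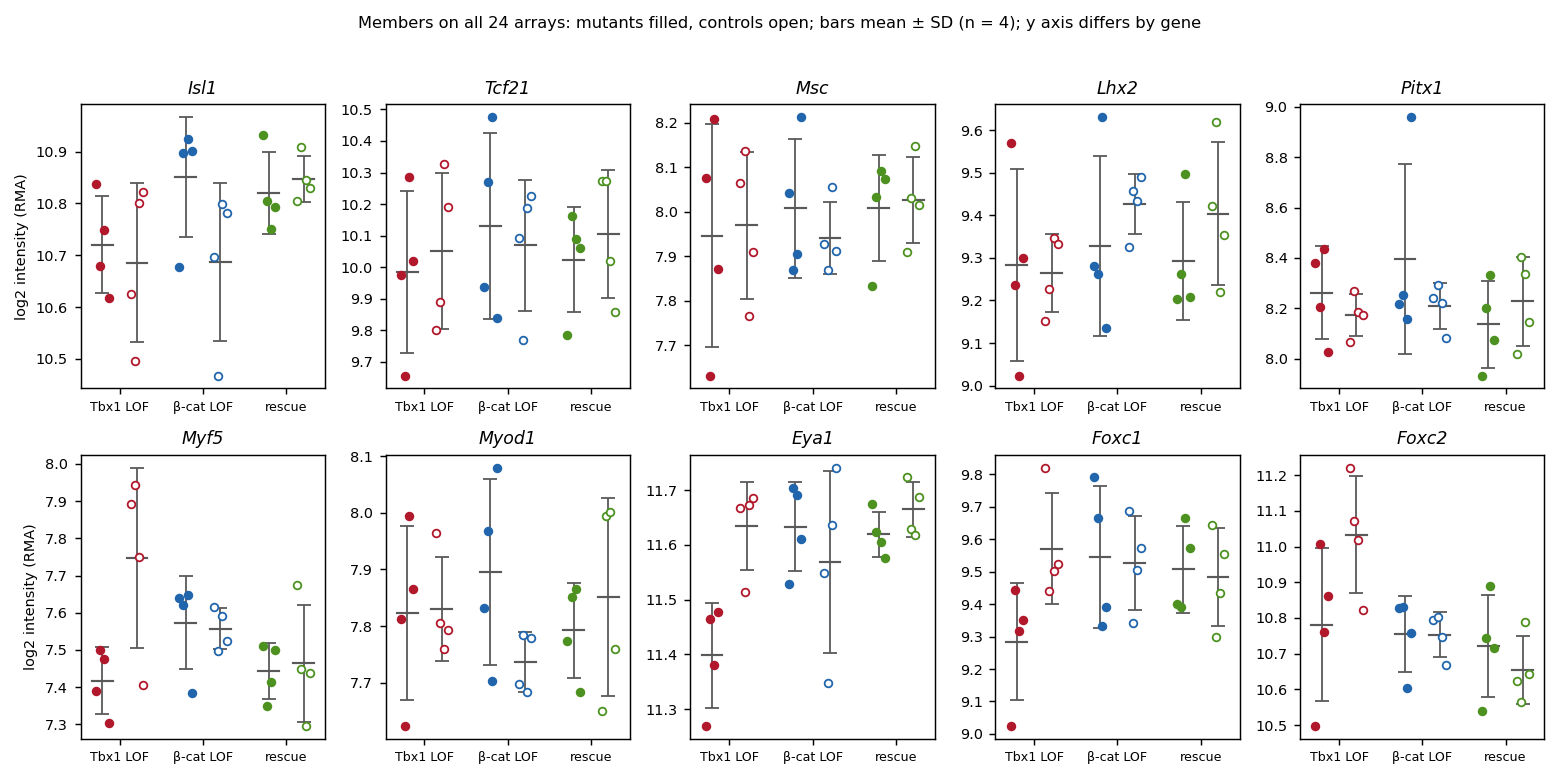
Log2 intensity of each of the 10 genes (1 panel each, own y axis) on all 24 arrays, with mutants filled, controls open, and bars for the mean ± SD of 4 arrays. The 4 *Tbx1 LOF* points of *Eya1* lie below their 4 controls, and for *Myf5*, *Foxc1* and *Foxc2* the 2 groups overlap.

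*Myf5*, the earliest of the myogenic determination factors, had the largest difference. It read 7.39, 7.5, 7.48 and 7.3 in the *Tbx1 LOF* arrays 1 to 4 and 7.89, 7.94, 7.75 and 7.41 in controls 1 to 4. Of the controls, 3 were above every mutant array, and the control numbered 4 lay among the mutants. Mutant minus same-numbered control was -0.50, -0.44, -0.27 and -0.10, below 0 in 4 of 4, and with these arrays as pairs the limma adjusted p was 0.207. The log2 difference was -0.33 (SE 0.09, limma p = 0.00181, adjusted p = 0.460, two-sided exact permutation p = 0.0857), a 0.796-fold level with a 95% interval from 0.696 to 0.910. The smallest p that 4 against 4 arrays allow in the exact test is 0.0286. The arrays had been run in batches that the sources do not assign. Arrays numbered 1 and 2 gave -0.47 and arrays 3 and 4 gave -0.19, in the same direction. *Myod1*, which acts beside and after *Myf5* to commit cells to muscle, read 7.81, 7.62, 7.99 and 7.86 in mutants and 7.96, 7.81, 7.76 and 7.79 in controls. Its mutant arrays spanned the whole range of the controls, and the log2 difference was -0.01 (95% interval -0.19 to 0.17). All 24 *Myf5* values lay below the median value of every array. Over the 24 arrays, *Myod1* ran from 7.62 to 8.08, *Msc* from 7.63 to 8.21 and *Pitx1* from 7.93 to 8.96. These 3 ranges reached from below the lowest array median to above it. Whether the signals of these 4 genes stood above array background was not tested.

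*Eya1* was the 1 member of 10 whose arrays of mutants and controls were fully apart in *Tbx1 LOF*, as were those of 2.3% of all genes. The 4 *Tbx1 LOF* arrays read 11.27, 11.47, 11.38 and 11.48, and the controls 11.67, 11.51, 11.67 and 11.69. The log2 difference was -0.24 (SE 0.07, limma p = 0.00216, adjusted p = 0.474), a 0.849-fold level (95% interval 0.770 to 0.936), and the two-sided exact permutation p was 0.0286, the smallest this design allows. It was -0.22 in arrays 1 and 2 and -0.25 in arrays 3 and 4. Of the sine oculis homeobox genes, the other *Eya* genes and the *Dach* genes, which work in 1 network with *Eya1*, 10 of 11 listed were measured. Of these 10, 9 had values below 0, as did 58.7% of all genes. By limma at an unadjusted p under 0.05 there were 3, all lower, where 1.95% of all genes were lower. None passed the adjusted threshold, and the median was -0.09 against -0.01 for all genes. *Six2* differed by -0.38 (limma adjusted p = 0.398), with mutants from 10.24 to 10.74 and controls from 10.80 to 10.94. *Eya4* differed by -0.36 and *Eya2* by -0.25, with overlapping arrays, and these 2 were named after their values were seen. *Six2* was named by a rule on p and overlap that uses these same values.

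*Foxc1* and *Foxc2* were both lower, but the groups overlapped. *Foxc1* read 9.02, 9.44, 9.32 and 9.35 in *Tbx1 LOF* and 9.82, 9.44, 9.5 and 9.52 in controls, a log2 difference of -0.29 (SE 0.11, limma p = 0.0172, adjusted p = 0.930, exact permutation p = 0.0571). *Foxc2* read 10.5, 11.01, 10.76 and 10.86 in mutants and 11.22, 11.07, 11.02 and 10.82 in controls, a log2 difference of -0.25 (SE 0.09, limma p = 0.0137, adjusted p = 0.893, exact permutation p = 0.114). In both genes, the lowest mutant array was number 1 and the highest control was also number 1. Without mutant array 1 the limma p was 0.0903 for *Foxc1* and 0.0917 for *Foxc2*, and without control array 1 it was 0.0876 and 0.0659. Arrays 1 and 2 gave -0.40 for *Foxc1* and -0.39 for *Foxc2*, and arrays 3 and 4 gave -0.18 and -0.11.

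The other members did not separate in *Tbx1 LOF*. *Isl1*, which marks second heart field progenitors, read 10.84, 10.68, 10.75 and 10.62 in mutants and 10.62, 10.5, 10.8 and 10.82 in controls (log2 difference 0.03, 95% interval -0.13 to 0.20). *Tcf21* read 9.98, 9.66, 10.29 and 10.02 against 9.8, 9.89, 10.33 and 10.19 (-0.07, -0.38 to 0.24). *Msc* read 8.08, 7.63, 8.21 and 7.87 against 8.06, 8.14, 7.77 and 7.91 (-0.02, -0.24 to 0.19). Mutant and control arrays overlapped in all these genes, and the *Tcf21* interval was the widest of them. *Lhx2* read 9.57, 9.24, 9.02 and 9.3 against 9.15, 9.23, 9.35 and 9.33 (0.02, -0.20 to 0.24). *Pitx1* read 8.38, 8.2, 8.43 and 8.03 against 8.07, 8.27, 8.19 and 8.17 (0.09, -0.19 to 0.36). For all 5, unadjusted limma p-values were 0.510 or higher, and a p that misses the threshold does not show that the levels were alike.

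**Figure D2:**
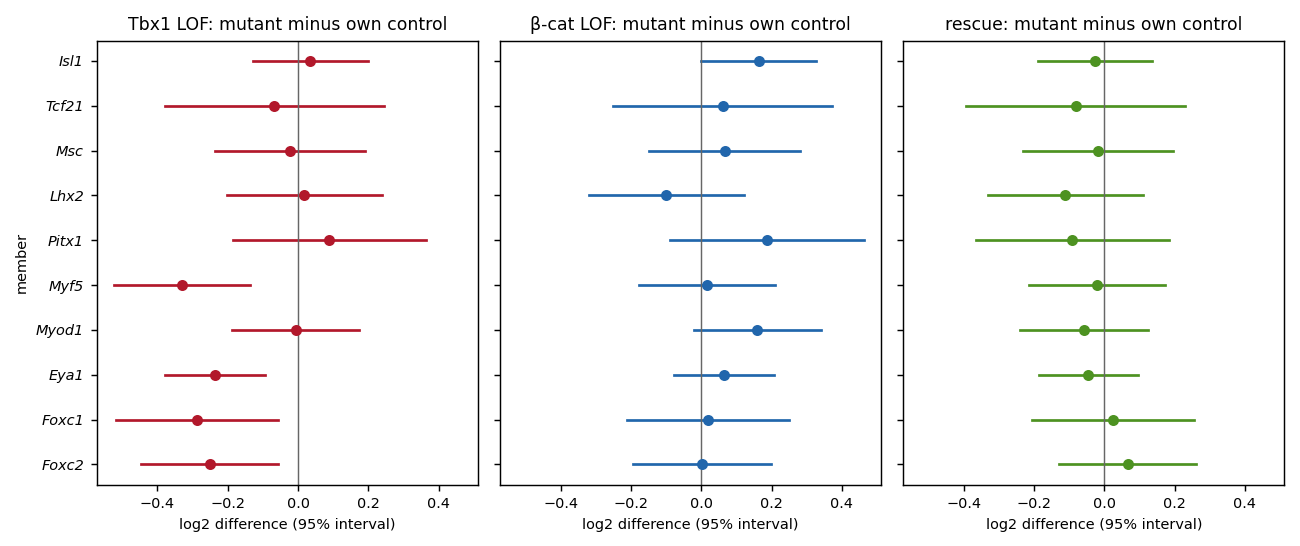
Log2 difference of mutant minus own control (x axis, points) with limma's unadjusted 95% interval (lines) for the 10 genes in *Tbx1 LOF*, *β-cat LOF* and rescue. The intervals of *Myf5*, *Eya1*, *Foxc1* and *Foxc2* lie below 0 for *Tbx1 LOF*, that of *Isl1* lies just above 0 for *β-cat LOF*, and all 10 include 0 for rescue.

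The controls of the 3 experiments were not level for these genes. For *Foxc2*, the 4 *Tbx1 LOF* controls (10.82 to 11.22) were above all 8 other controls (10.57 to 10.80), by 0.33 on average, and the *Tbx1 LOF* mutants were 0.08 above those 8. For *Myf5*, the *Tbx1 LOF* controls averaged 0.24 above the other controls, which ranged from 7.30 to 7.68, and the mutants averaged -0.09 relative to them. The *Tbx1 LOF* controls averaged 0.02 above the other controls for *Eya1* and 0.07 above them for *Foxc1*, and the *Tbx1 LOF* mutants of both genes stood at -0.22 relative to the other controls. The means of the 3 control groups spanned 0.10 for *Eya1*, 0.09 for *Foxc1*, 0.28 for *Myf5* and 0.38 for *Foxc2*. Set against the mean of the 3 control groups, a comparison chosen after seeing the data, the *Tbx1 LOF* difference was -0.22 for *Eya1*, -0.24 for *Foxc1*, -0.17 for *Myf5* and -0.03 for *Foxc2*. The unadjusted limma p stayed under 0.05 for the first 3 and not for *Foxc2*, and no adjusted p was under it.

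**Figure D3:**
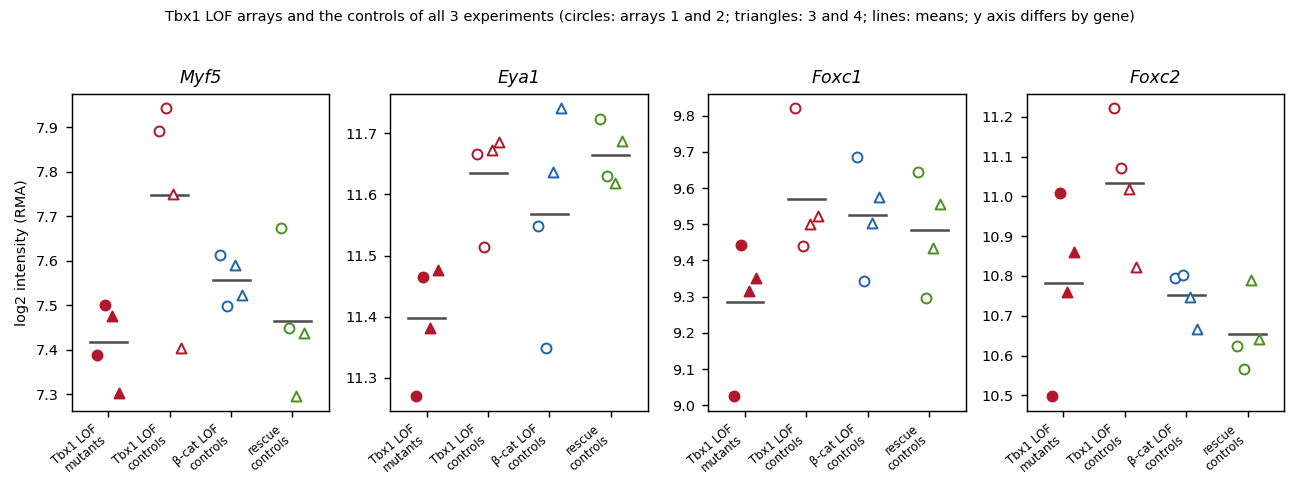
Log2 intensity of *Myf5*, *Eya1*, *Foxc1* and *Foxc2* (own y axis each) in the *Tbx1 LOF* mutants and in the controls of all 3 experiments, with circles for arrays 1 and 2, triangles for arrays 3 and 4, and lines for means. The *Foxc2* controls of *Tbx1 LOF*, at 10.82 and above, lie over all other controls.

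In *β-cat LOF*, 9 of the 10 members had log2 differences above 0, as did 57.4% of all genes, and again 0 of 10 were called by limma at an adjusted p under 0.05, as were 0% of all genes. At an unadjusted p under 0.05 there was 1 of 10, *Isl1*, where 5.72% of all genes passed, and 0 of 10 had arrays that did not overlap, where 2.84% of all genes did so. *Isl1* read 10.68, 10.9, 10.92 and 10.9 in mutants and 10.7, 10.47, 10.8 and 10.78 in controls. In all, 3 mutant arrays were above every control, and mutant array 1 lay below 3 of the controls. The log2 difference was 0.16 (SE 0.08, limma p = 0.0492, adjusted p = 0.854, exact permutation p = 0.171), and it kept the unadjusted threshold in 8 of 18 other settings. Control array 2 had the lowest *Isl1* value of the 8 arrays, 10.47, and without it the difference was 0.09. The same array had the highest mean of heart tube markers, 12.51, against 10.15 to 11.01 in the other 3 controls. Whether the source of those transcripts bears on the *Isl1* value was not tested.

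*Myod1* read 7.83, 7.97, 7.7 and 8.08 in the *β-cat LOF* arrays and 7.7, 7.78, 7.68 and 7.78 in controls, a log2 difference of 0.16 (95% interval -0.02 to 0.34, limma p = 0.0818, exact permutation p = 0.114). In all, 3 mutant arrays were above all controls. *Pitx1* read 8.22, 8.26, 8.16 and 8.96 against 8.24, 8.29, 8.22 and 8.08 (0.19, -0.09 to 0.46). Mutant array 4 alone stood above the controls of *Pitx1*, at 8.96, and without it the difference was 0.00030. *Myf5* read 7.64, 7.62, 7.65 and 7.39 against 7.61, 7.5, 7.59 and 7.52, a difference of 0.02, with mutant array 4 the lowest of the 8 and the other 3 mutant arrays above all controls. *Eya1* read 11.53, 11.7, 11.69 and 11.61 against 11.55, 11.35, 11.64 and 11.74 (0.06), with control array 2 lowest.

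For the *Foxc* genes in *β-cat LOF*, *Foxc1* read 9.79, 9.66, 9.33 and 9.39 against 9.69, 9.34, 9.5 and 9.57 (0.02), and mutant arrays 1 and 2 were the higher ones. *Foxc2* read 10.83, 10.83, 10.6 and 10.76 against 10.79, 10.8, 10.75 and 10.67 (0.00, -0.19 to 0.20). Among the bHLH and LIM genes, *Tcf21* read 9.94, 10.27, 10.47 and 9.84 against 10.09, 9.77, 10.19 and 10.23 (0.06). All of these overlapped. *Msc* read 8.04, 7.87, 7.9 and 8.21 against 7.93, 7.87, 8.06 and 7.91 (0.07), and *Lhx2* read 9.28, 9.26, 9.63 and 9.13 against 9.33, 9.46, 9.43 and 9.49 (-0.10, -0.32 to 0.12). *Lhx2* was the 1 member with a value below 0 in this experiment, and its mutant array 3 was above all controls. The median of the 10 was 0.06, and that of all genes 0.01.

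In rescue embryos the log2 differences of the 10 regulators from their own controls ran from -0.11 for *Lhx2* to 0.07 for *Foxc2*. At an adjusted p under 0.05 limma called 0 of 10, as it did 0% of all genes, at an unadjusted p under 0.05 it also gave 0 of 10, where 1.27% of all genes passed, and 0 of 10 did not overlap, where 2.97% of all genes did so. *Myf5* read 7.51, 7.35, 7.41 and 7.5 in rescue and 7.68, 7.45, 7.3 and 7.44 in controls (log2 difference -0.02, 95% interval -0.21 to 0.17). All 4 rescue arrays lay within the controls' range. The rescue controls of *Myf5* averaged -0.19 relative to the other controls, and the rescue mutants -0.21. For *Foxc2* these values were -0.24 and -0.17. *Eya1* read 11.67, 11.62, 11.61 and 11.58 against 11.72, 11.63, 11.62 and 11.69 (-0.05, -0.19 to 0.10), with 2 rescue arrays below all controls. *Foxc1* read 9.4, 9.39, 9.67 and 9.57 against 9.64, 9.3, 9.43 and 9.56 (0.02, -0.21 to 0.25). *Foxc2* read 10.54, 10.74, 10.89 and 10.72 against 10.62, 10.57, 10.79 and 10.64 (0.07, -0.13 to 0.26), and for both *Foxc* genes 1 rescue array was above every control.

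*Isl1* read 10.93, 10.8, 10.75 and 10.79 in rescue and 10.8, 10.91, 10.85 and 10.83 in controls (-0.03), and 3 of the 4 rescue arrays were below all controls while array 1 was above them. *Tcf21* read 9.78, 10.16, 10.09 and 10.06 against 10.27, 10.27, 10.02 and 9.86 (-0.08), and *Msc* 7.83, 8.03, 8.09 and 8.07 against 7.91, 8.03, 8.15 and 8.02 (-0.02). *Lhx2* read 9.2, 9.26, 9.5 and 9.21 against 9.42, 9.62, 9.22 and 9.35 (-0.11, -0.33 to 0.11). None of these separated the groups. *Pitx1* read 7.93, 8.2, 8.33 and 8.07 against 8.02, 8.41, 8.34 and 8.15 (-0.09), and *Myod1* 7.77, 7.85, 7.86 and 7.68 against 7.65, 7.99, 8.0 and 7.76 (-0.06). The median of the 10 was -0.04 and that of all genes -0.02.

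Whether the *Tbx1 LOF* difference itself differed from that in the other experiments was tested in the same fit. Against *β-cat LOF*, 0 of 10 members were called by limma at an adjusted p under 0.05 (0.0502% of all genes) and 2 of 10 at an unadjusted p under 0.05 (6.44% of all genes). These were *Eya1*, with a difference of -0.30 (95% interval -0.50 to -0.10, limma adjusted p = 0.320), and *Myf5*, at -0.35 (-0.62 to -0.07, limma adjusted p = 0.501). Against rescue, limma called 0 of 10 at an adjusted p under 0.05 (0% of all genes) and gave 2 of 10 at an unadjusted p under 0.05 (1.71% of all genes). These were *Foxc2*, at -0.32 (95% interval -0.59 to -0.04), and *Myf5*, at -0.31 (-0.58 to -0.03), both with a limma adjusted p of 0.99998. Without the *Tbx1 LOF* control array 1, neither stayed under the unadjusted threshold. The mutant means of the *Tbx1 LOF* and rescue experiments were 7.42 and 7.44 for *Myf5* and 10.78 and 10.72 for *Foxc2*, while the control means were 7.75 and 7.46 for *Myf5* and 11.03 and 10.65 for *Foxc2*. Against the mean of the 3 control groups, *Myf5* stood at -0.17 in *Tbx1 LOF* (limma adjusted p = 0.776) and -0.15 in rescue (0.992). *Eya1* differed between *Tbx1 LOF* and rescue by -0.19 (-0.39 to 0.01). *Foxc1* stood at -0.30 against *β-cat LOF* and -0.31 against rescue, and both intervals included 0.

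Among 26 other genes of the pharyngeal mesoderm and head muscle network, 25 were measured, and *Tbx1* and *Nrg1* fell in *Tbx1 LOF* at an adjusted p under 0.05. *Nrg1*, which encodes the ErbB ligand neuregulin, fell by 0.40 on the log2 scale (SE 0.07, limma adjusted p = 0.0305), with 9.20 to 9.34 in controls and 8.80 to 8.98 in mutants. With same-numbered arrays as pairs, limma called 0 genes in *Tbx1 LOF* at that threshold. At an unadjusted p under 0.05, 8 were lower, these 2 included, and 3 were higher. The lower ones with arrays that did not overlap were these 2, *Fgf10* (-0.39), a growth factor of the second heart field, the homeobox gene *Tlx1* (-0.39) and *Ebf3* (-0.32). *Hand2*, a bHLH gene of heart and arches, was higher by 0.25 (adjusted p = 0.235) without overlap. The median of the 25 was -0.01, as for all genes. In *β-cat LOF*, 3 were lower and 0 higher at an unadjusted p under 0.05. In rescue 4 were lower and 1 higher, with *Fgf10* at -0.47 and *Nrg1* at -0.21, and none passed the adjusted threshold in either.

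All 31 listed genes of skeletal muscle determination and differentiation were measured, and none passed the adjusted threshold in any experiment. In *Tbx1 LOF*, 3 were lower and 4 higher at an unadjusted p under 0.05. The lower ones, with overlapping arrays, were *Myog* (-0.22), the myogenic factor that follows *Myf5* and *Myod1*, *Mybph* (-0.19) and *Cdh15* (-0.18), the muscle cadherin. The higher ones were *Des* (0.40), *Actc1* (0.44), *Tnni1* (0.51) and *Myl1* (0.62), of which *Des*, *Actc1* and *Tnni1* are also transcribed in embryonic heart. In *β-cat LOF*, 6 were lower, *Myl1*, *Acta1*, *Tnni1*, *Actc1*, *Des* and *Mylpf*, from -1.31 to -0.28, and *Cdh15* was higher by 0.17. Rescue had 0 in either direction by limma at an unadjusted p under 0.05. *Des*, *Actc1* and *Acta1* were named by a rule on p and overlap that uses these same values. The other genes were named after their values were seen.

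The list of somite and limb muscle progenitor genes gave the lowest median of the lists in *Tbx1 LOF*, -0.20. Of its 14 measured genes 13 were below 0, where 58.7% of all genes were. By limma 6 were lower at an unadjusted p under 0.05, where 1.95% of all genes were. None passed the adjusted threshold, and none had arrays without overlap. The 6, named after their values were seen, were *Meox2* (-0.82), *Dmrt2* (-0.66), *Pax3* (-0.48), *Pax9* (-0.36), *Meox1* (-0.33) and *Ripply1* (-0.19). *Pax9* was also on the list of pharyngeal endoderm markers. Averaged over the list, the mutant arrays ran from 8.40 to 8.72 and the controls from 8.62 to 9.07, with controls 1 and 2 the highest of all 24 arrays. These 2 arrays also gave the highest *Myf5* values of the series, 7.89 and 7.94. For the list of sine oculis, *Eya* and *Dach* genes they were also the highest of all 24, at 9.48 and 9.45. *Foxc1* and *Foxc2* had their highest values of the series in control 1, 9.82 and 11.22. *Eya1* itself read 11.67 and 11.51 in controls 1 and 2, against 11.67 and 11.69 in controls 3 and 4. How much somite tissue the dissections held was not tested. Its part in the *Myf5*, *Eya1*, *Foxc1* and *Foxc2* differences, or in those of the sine oculis, *Eya* and *Dach* list, was not tested either. The list median was 0.09 for *β-cat LOF* and -0.07 for rescue.

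**Figure D4:**
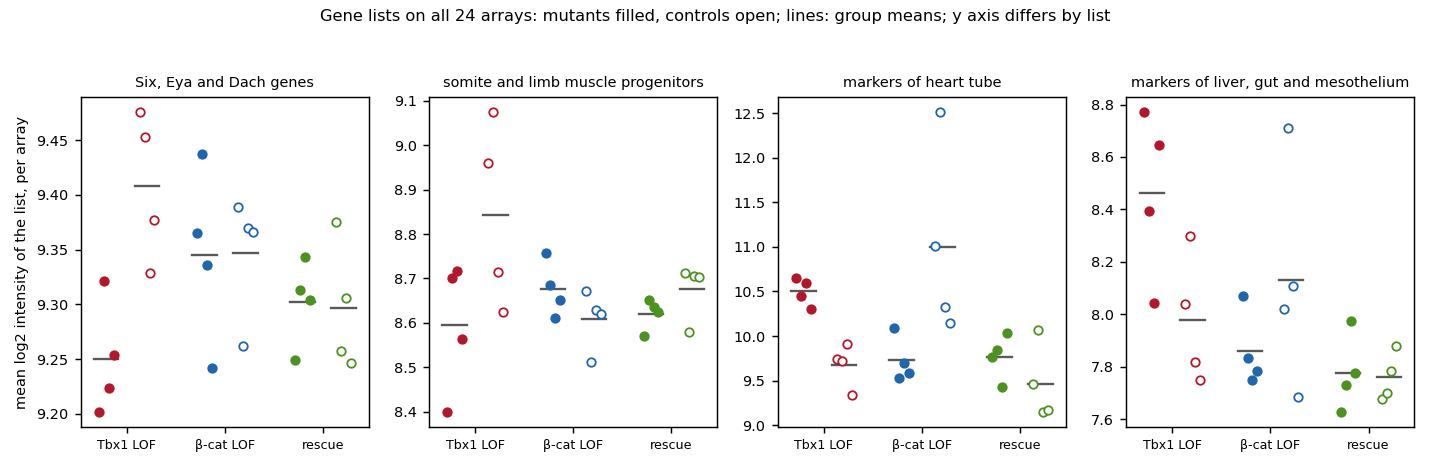
Mean log2 intensity per array of 4 gene lists (own y axis each) on all 24 arrays, with mutants filled, controls open and lines for group means. The *Tbx1 LOF* heart tube means (10.30 to 10.65) lie above their controls (9.34 to 9.91), and their somite list controls reach 9.07.

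Of 30 close relatives of the 10 regulators, 29 were measured, and none passed the adjusted threshold. In *Tbx1 LOF* the forkhead genes *Foxd1* (-0.54) and *Foxf2* (-0.27) and the myogenic factor *Myog* (-0.22) were lower and the LIM gene *Lhx9* (0.41) higher at an unadjusted p under 0.05, all with overlapping arrays. In *β-cat LOF* it was *Twist2* (-0.24) and in rescue *Foxa2* (0.21). These relatives were named after their values were seen.

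Genes listed as markers of other cells also moved with the groups. The paper states that its dissection left out the heart tube. It reports that muscle structural genes rose in the AHF of *Tbx1 LOF*, fell in *β-cat LOF* and were largely normalized in rescue. Which cells the transcripts listed here came from was not tested. All 14 heart tube markers were above 0 in *Tbx1 LOF*, 10 at an unadjusted p under 0.05 and 12 without overlap, with a median of 0.77, and the 14-gene mean ran from 10.30 to 10.65 in mutants and from 9.34 to 9.91 in controls. In *β-cat LOF* all 14 were below 0, 13 at an unadjusted p under 0.05, with means from 9.53 to 10.09 in mutants and from 10.15 to 12.51 in controls. Rescue means overlapped, at 9.42 to 10.03 and 9.15 to 10.07. Markers of liver, gut and mesothelium were also above 0 in *Tbx1 LOF* in 11 of 11, 6 of them at an unadjusted p under 0.05, with a median of 0.37. In *β-cat LOF* all 11 were below 0, 1 at an unadjusted p under 0.05, with a median of -0.18. Of all genes, 41.3% were above 0 in *Tbx1 LOF* and 42.6% below 0 in *β-cat LOF*. No gene of these 2 lists passed the adjusted threshold by limma in any experiment.

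Markers of tissues in which some of the 10 regulators are also used were examined as well. The 23 of 25 measured markers of motor neurons and cranial ganglia, which include cells with *Isl1*, averaged 8.65 to 8.72 over the *β-cat LOF* arrays and 8.55 to 8.67 over their controls. Their median was 0.11 in *β-cat LOF*, -0.09 in *Tbx1 LOF* and 0.08 in rescue, where *Isl1* differed by -0.03. Neural crest and arch mesenchyme markers (20 of 22 measured) had a median of -0.09 in *Tbx1 LOF*, with a group mean of 9.93 in mutants and 10.01 in controls. At an unadjusted p under 0.05 (limma), 1 of these 20 was higher and 3 were lower. Pharyngeal endoderm markers (18 of 19) had a median of -0.04 for *Tbx1 LOF* and of 0.10 for *β-cat LOF*, and surface ectoderm and otic markers (16 of 16) had -0.04 and 0.14. Endothelial markers (10 of 10) had -0.0046 and -0.15. Of the 18 endoderm markers in *Tbx1 LOF*, 3 were higher and 2 lower at an unadjusted p under 0.05, which 4.12% of all genes passed. Of these, *Krt8* (0.27) and *Ripply3* (-0.39) had arrays that did not overlap. In *β-cat LOF*, the mean over the ectoderm and otic list was 8.611 to 8.752 in mutants, above 8.485 to 8.606 in controls, with 4 of 16 genes higher at an unadjusted p under 0.05. The endothelial mean was 10.45 to 10.54 in those mutants, below 10.55 to 10.72 in controls, with 5 of 10 genes lower. Neither list's means overlapped between the groups, in the experiment in which 9 of the 10 regulators lay above 0. No gene of these lists passed the adjusted threshold, and the part of these cells in the members' values was not tested.

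The genes whose deviations from the group means most resembled those of each member over the 24 arrays were named by Pearson's r as a description, since arrays share dissection and labelling. *Myf5* was most like *Zbtb24* (r = 0.773), *Dmrt2* (0.760), a dermomyotome gene, *Pdgfc*, *Flot1* and *H2-Q4*. *Foxc2* was most like *Cntn2* (0.823), *C1ql1*, *Foxd1* (0.797), *Thap12* and *Glra1*, and *Foxc1* was most like *Podxl2* (0.873), *Wnk2*, *Lrig3*, *Dpysl4* and *Megf10*. *Eya1* was most like *Enpp3* (0.932), *Mecr*, *Dlx1* (0.849), *H2ax* and *Gm266*. *Isl1* was most like *Ikzf2* (0.854), *Cep170b*, *Spred3*, *Cldn4* and *Etv4*. *Tcf21* had *Ciart* (0.867), *Zmat5*, *Mad2l2*, *Kcne3* and *Fam83h*. *Lhx2* had lower values, with *Rac1* (0.738), *1700025G04Rik*, *0610012G03Rik*, *Sco1* and *Mrpl47*. *Msc* had *Cyp2f2* (0.923), *Pparg*, *Pnpla1*, *Tenm1* and *Traf3ip3*. *Pitx1* had *Olfr1055* (0.870), *Slc13a5*, *Shank1*, *Ptpn5* and *Tbx6*, and *Myod1* had *Olfr347* (0.911), *Olfr1105*, *Dnmt3l*, *Myom3* and *Fezf2*. Among the members themselves, *Foxc1* and *Foxc2* had the highest r (0.625), followed by *Msc* with *Pitx1* (0.594), *Pitx1* with *Myod1* (0.591) and *Msc* with *Myod1* (0.584), and *Isl1* with *Foxc2* had the lowest (-0.615).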

How the data were processed

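AHF tissue was profiled on Affymetrix Mouse Gene ST 1.0 arrays, 24 in all. The authors derived the deposited log2 values from array intensities by RMA (oligo package): background correction, quantile normalization and summarization per gene. Its version and the genome build were not given in the sources used here. ComBat and a batch block, which the study used, were not repeated, because no source assigns arrays to batches or states whether the values already hold ComBat. Precision is limited by the number of arrays.

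Of 35556 probe sets, 21789 with 1 gene symbol were kept and averaged per gene, and 1621 with several and 12146 with none were left out. Of 19938 genes, 19856 matched RefSeq by gene identifier. Groups followed the labels. Differential expression was tested with limma 3.58.1 (R 4.3.3) in 1 fit of 6 group means, each mutant group against its control, and the *Tbx1 LOF* difference was compared with the others. P-values were adjusted by Benjamini-Hochberg over all 19938 genes. Limma p-values are judged against the spread of pooled samples within the 6 groups, batch differences included unless the values already hold ComBat. The paper warns that batch adjustment can overstate confidence in differential expression, and the main fit has no term for it. Exact permutation tests were two-sided. The fit was tested on simulated data. Named were all 10 members, *Tbx1* and *Ctnnb1*, up to 6 genes per list at adjusted p under 0.05, or at unadjusted p under 0.05 without overlap, and the 5 genes most like each member. The 10 members and 12 gene lists were chosen with earlier results of these data known.

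Mutant and control arrays share replicate numbers. In the *Tbx1 LOF* experiment, deviations of same-numbered arrays correlated at 0.396, 0.157, 0.202 and 0.494. The numbers were taken as pairs there, from the data and not from the labels. Only mutant array 4 correlated best with the control of its own number, and mutant arrays 1, 2 and 3 did so with another control. In *β-cat LOF*, not taken as pairs, mutant arrays 3 and 4 correlated best with their own number, and in rescue array 3 did. The pairing is therefore uncertain. In the other experiments some pairs were at or under 0.1. Alternatives were other normalizations, filters, probe set choices, variance models, array weights, a replicate block, a term for arrays 1 and 2 against 3 and 4, experiments fitted alone, each array left out, and, added after seeing the data, all controls as reference. Motifs were searched on both strands with Python 3.11.15, and figures were drawn with matplotlib 3.10.9.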

Additional observations from a re-analysis of the deposited data

Results flagged for a closer look

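Among 60 groups of 4 arrays, 10 genes in 6 groups each, 4 held an array whose gap to its nearest neighbour was too large a part of the group's range by Dixon's 95% critical value, where chance gives about 1 in 20 groups. Of these, 3 lay in the *β-cat LOF* mutants. *Isl1* was lowest in array 1, at 10.68, with the others between 10.90 and 10.92. *Pitx1* was highest in array 4, at 8.96, with the others between 8.16 and 8.26. *Myf5* was lowest in array 4, at 7.39, with the others between 7.62 and 7.65. In the *Tbx1 LOF* controls, *Eya1* was lowest in array 2, at 11.51, with the others between 11.67 and 11.69, and this array was still above all 4 mutants.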

How the results depend on the processing

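No member passed an adjusted p under 0.05 in any comparison under any alternative run, and the main counts at an unadjusted p under 0.05 (limma) were 4 in *Tbx1 LOF*, 1 in *β-cat LOF*, 0 in rescue, and 2 each for the *Tbx1 LOF* difference against *β-cat LOF* and against rescue. With each array left out in turn these counts ran from 2 to 4, from 0 to 1, at 0, from 2 to 4 and from 0 to 4. In *Tbx1 LOF* the 2 came without mutant array 1 or control array 1, which left *Myf5* and *Eya1*. The count of 1 in *β-cat LOF*, *Isl1*, was 0 with experiments fitted alone, with median centring, with array weights and against the mean of the 3 control groups, and also without mutant arrays 2 or 4 or control arrays 1 or 2. With experiments fitted alone, the count against rescue was 4. The 0 against rescue came without the *Tbx1 LOF* control array 1. The cause of these differences was not tested.

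*Myf5* in *Tbx1 LOF* ranged from -0.44 to -0.17 and *Eya1* from -0.28 to -0.19, and both kept an unadjusted p under 0.05 in all 18 alternatives. *Foxc1* ranged from -0.34 to -0.20 and kept it in 16, and *Foxc2* from -0.33 to -0.03 and kept it in 13. With same-numbered arrays as a replicate block, taken as pairs in the *Tbx1 LOF* experiment, the members' counts were again 4, 1, 0, 2 and 2, but the 1 in *β-cat LOF* was *Myod1* and not *Isl1*, as it also was without mutant array 3. The block changed the calls of other genes. The targeted gene *Tbx1* had an adjusted p of 0.122, and genes called at an adjusted p under 0.05 in *Tbx1 LOF* went from 6 to 0, in *β-cat LOF* from 0 to 2, and for *Tbx1 LOF* against *β-cat LOF* from 10 to 2. In every experiment the samples may share only a number. Counts of genes called ranged over all alternatives from 0 to 45 in *Tbx1 LOF*, from 0 to 42 in *β-cat LOF*, from 0 to 1 in rescue, from 0 to 169 against *β-cat LOF* and from 0 to 1 against rescue. The 45 came against the mean of the 3 control groups, and the 42 and the 169 came without the *β-cat LOF* control array 4.

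With 4 arrays a group, the unadjusted 95% intervals of the members reached from -0.52 to 0.46 over the 3 experiments. The control genotype, the batch of each array and whether ComBat is in the values were not settled, and strain background and experiment cannot be told apart. Levels of genes listed as markers of other tissues differed between groups of pools. Whether the *Myf5*, *Myod1*, *Msc* and *Pitx1* signals stood above array background was not tested.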
